A study of Arabidopsis thaliana with 51 samples.

Results

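The stretch described here holds the cytosines outside CpG that lie upstream of the AGp domain at the AG locus of Arabidopsis thaliana, meaning at lower coordinates, from 10377702 up to the domain's first base at 10380602. Members were chosen by rule as every CHG or CHH entry of the deposited table in these 2900 bp (H is A, C or T). The rule took 795 of 5709 entries, 94 CHG and 701 CHH. The limits were drawn from the measured levels of the Col AGp//AGe sMf library, which placed a domain methylated at CpG alone just before the stretch and the AGp domain just after it. Of the 795 members, 8 share a coordinate and 39 could not be placed in every block of columns, which leaves 748 analysed (88 CHG and 660 CHH). Of these, 43 were above 0 in no library.

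Plants methylate cytosines in 3 contexts with separate machinery. MET1 copies CpG methylation at replication, CMT3 maintains CHG methylation together with histone H3 lysine 9 methylation, and CHH methylation has to be laid down anew, either by DRM2 guided by small interfering RNAs (RNA-directed DNA methylation, RdDM) or by CMT2. CHG and CHH methylation that extends past the sequence matched by the small RNAs is commonly called spreading. DDM1 is a chromatin remodeller needed for methylation of heterochromatin, SUVH1 is a reader of methylated DNA linked to transcription, and HDP1 and HDP2 are subunits of a histone acetyltransferase complex that recruits the demethylase ROS1. AG (AGAMOUS, AT4G18960) encodes a MADS-box protein that specifies stamens and carpels. The table names no chromosome, and the construct labels AGe and AGp are not spelled out. It is read here as the AG locus, which the TAIR10.1 gene table places on chromosome 4 with AT4G18950 and AT4G18970 as neighbours. Exons, introns and gene limits within the stretch were not annotated here.

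Bisulfite sequencing of young flowers gave 51 libraries in 3 sets (A, B and C in their titles), with 28 in set A, 13 in set B and 10 in set C, and each library pooled flowers of 5 to 10 lines that shared a phenotype. The labels give the flower phenotypes sMf, rMf, Sterile and Wt without spelling out the first pair, and the series title expands ARE as an anti-RdDM element. Set A holds Col with AGp (Sterile, 2 libraries), AGp//AGe (sMf and rMf, 1 each), UF2//AGe, UF4//AGe and ARE//AGe Wt (1 each), AGe rMf (2) and no construct (Wt, 2). It also holds M317 with AGe sMf (2), AGe rMf (3) and no construct (Wt, 3), and M318 with the same groups (3 each). Set B holds ARE//AGe sMf, ARE//AGe rMf, Ctr//AGe rMf and Wt flowers without a construct in Met1-1 and in ddm1-1 (1 each), Col with Ctr//AGe Wt, Ctr//AGe rMf and AGe rMf (1 each), and Col Wt (2). Set C holds ARE//AGe sMf and rMf flowers of hdp1-1 and hdp2-1, ARE//AGe sMf flowers of suvh1-2, each allele's Wt flowers without a construct, Col ARE//AGe Wt and Col Wt (1 each). UF2//AGe and UF4//AGe carry sMf in the title and rMf in the phenotype field, so neither phenotype is assigned to them here. Most groups outside set A have 1 library, which allows no test within them. A construct that carries sequence of the locus gives reads that cannot be told apart from those of the endogenous copy.

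The values are methylation levels in percent per cytosine, and the read depth behind them is unknown. In set A a value of 0 may also stand for a cytosine without reads. This touches M317 and M318, in which only 2 of 17 libraries had any member above 0 within 1120 bp of AGp, with 1 and 2 such members of 264. Comparisons of mean levels that use M317 or M318 were therefore limited to the 484 members farther than 1120 bp from AGp. The tests of single cytosines were not limited in this way. Missing entries in sets B and C took between 0 and 322 of the 748 members, and the Met1-1, ddm1-1 and Ctr//AGe libraries of set B held most of them.

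Just inside the AGp edge, over the last 100 bp of the stretch, the non-CpG level of the Col AGp//AGe sMf library was 1.04%, against 9.14% in the first 100 bp of the AGp domain. At the other limit, the CpG level of that library was 0% over the first 100 bp of the stretch, against 63.7% over the 100 bp before it. These values set the limits and carry no test. A step at the AGp edge was also present in the Col Wt libraries, which carry no construct. Their non-CpG level was 0% to 0.625% over the last 100 bp of the stretch, against 5.14% to 11.1% in the first 100 bp of the AGp domain.

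The stretch stayed at a low level in most libraries. In the 41 libraries other than UF2//AGe and the ARE//AGe libraries of the 5 alleles, the mean level over all members lay between 0.0602% and 0.879%, with a median of 0.353%. In the 9 ARE//AGe libraries of the alleles the 547 members more than 900 bp from the AGp domain had mean levels between 0.335% (suvh1-2 sMf) and 0.655% (Met1-1 rMf), inside the range of the other 41 libraries (0.0366% to 0.978%). A patch of 500 bp, from 10379702 to 10380201 and so 401 to 900 bp upstream of the AGp domain, had higher mean levels than the members before it in all 9, by far the most in Met1-1 and hdp1-1 sMf flowers. A small rise was also present without a construct in suvh1-2 (1.32% against 0.413%) and Met1-1 (1.17% against 0.522%). The same held for hdp1-1 (0.877% against 0.486%) and hdp2-1 (0.728% against 0.642%), but not for ddm1-1 (0% against 0.892%). The patch is the 5 windows of 100 bp with the highest mean in the Met1-1 ARE//AGe sMf library. It was chosen after its values were seen, so its levels are a description with no test. It holds 114 members, 22 CHG and 92 CHH.

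**Figure D1:**
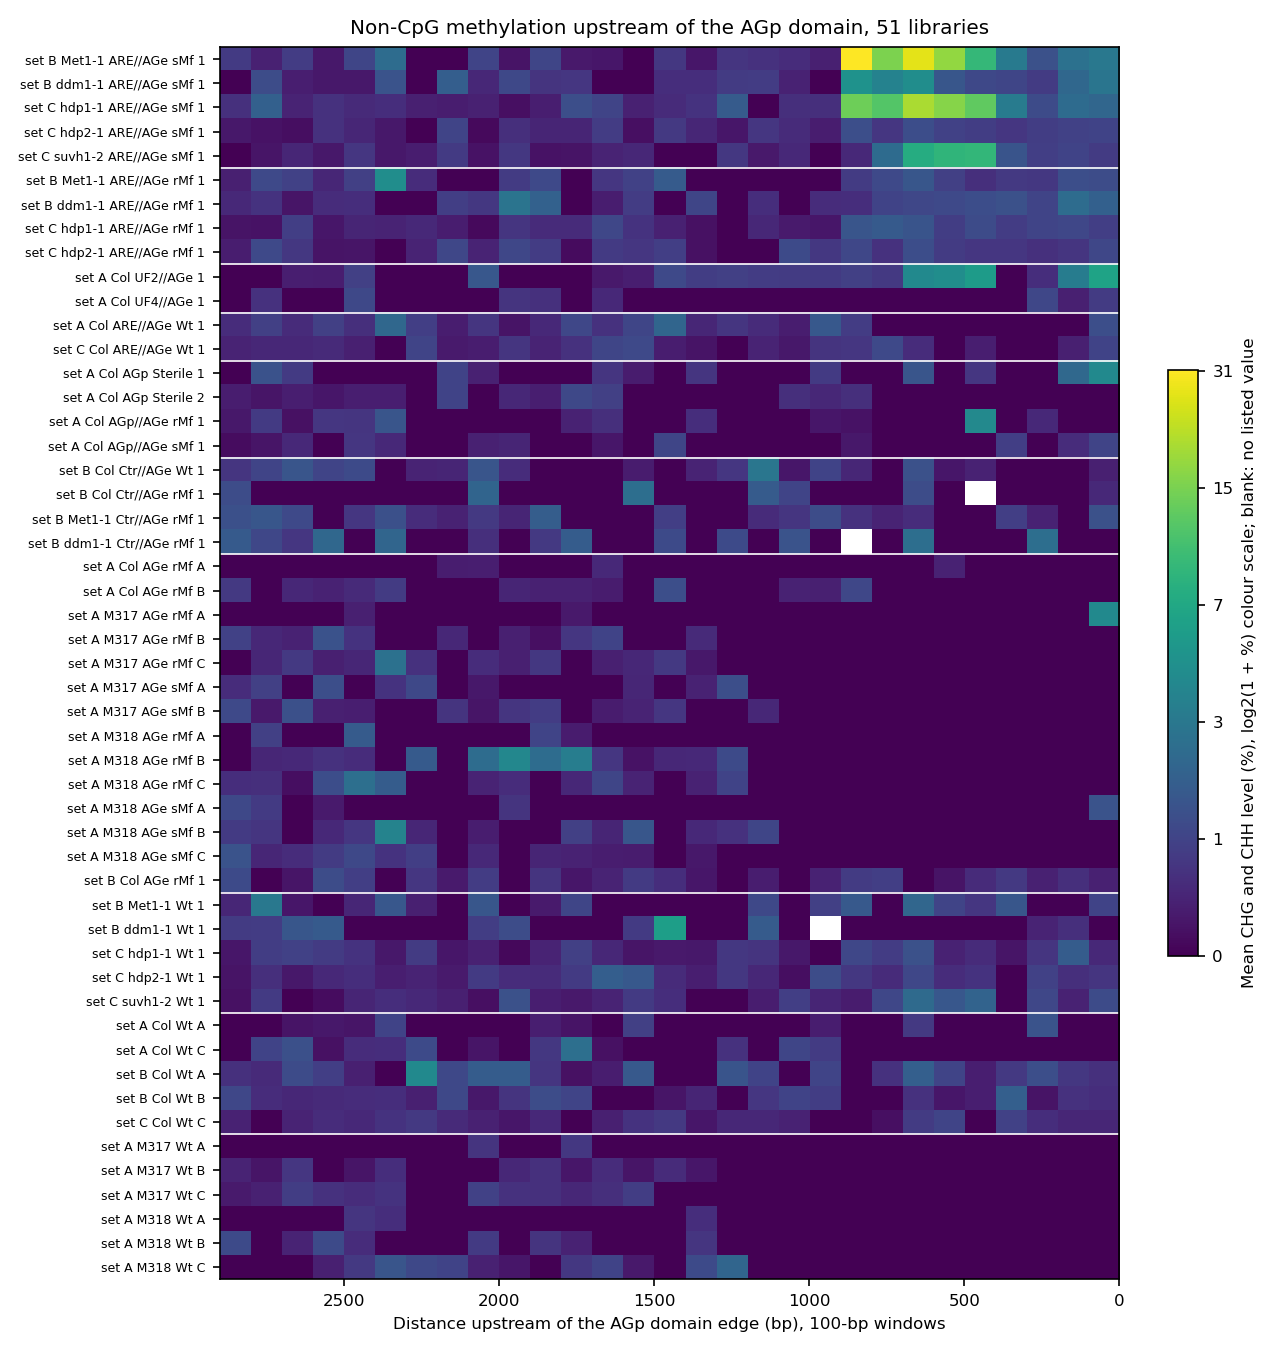
Mean CHG and CHH level in 29 windows of 100 bp (x axis, distance upstream of the AGp domain edge in bp) for each of the 51 libraries (rows, grouped by construct), on a log2(1 + percent) colour scale. The 500-bp patch 401 to 900 bp upstream stands out in the Met1-1 and hdp1-1 ARE//AGe sMf libraries, more weakly in suvh1-2 and ddm1-1, and UF2//AGe is raised from 700 bp to 401 bp and again next to the AGp edge.

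In Met1-1, ARE//AGe sMf flowers had a mean patch level of 21.8%, against 1.01% in ARE//AGe rMf flowers, 0.360% in Ctr//AGe rMf flowers and 1.17% in Wt flowers without a construct. In hdp1-1 the patch level was 15% in ARE//AGe sMf flowers, against 1.34% in ARE//AGe rMf flowers and 0.877% in Wt flowers without a construct. In suvh1-2 it was 5.08% in ARE//AGe sMf flowers, against 1.32% in Wt flowers without a construct. These 3 sMf libraries stand above every other library of the same allele, with no replicate to give a spread. In suvh1-2 the only other library is that of Wt flowers without a construct. The same held for the ddm1-1 sMf library. The ddm1-1 patch level was 3.37% in ARE//AGe sMf flowers, against 0.965% in ARE//AGe rMf flowers, 0.606% in Ctr//AGe rMf flowers and 0% in Wt flowers without a construct. In these last libraries only 33 (Ctr//AGe) and 47 (no construct) of the 114 members had a listed value. In hdp2-1 the level was 1.07% in ARE//AGe sMf flowers, against 0.947% in ARE//AGe rMf flowers and 0.728% in Wt flowers without a construct. The hdp2-1 sMf library thus lay within the 0.947% to 1.34% spanned by the 4 rMf libraries. In Col with ARE//AGe and Wt flowers the patch was at 0.246% in set A and 0.553% in set C.

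Every one of the 114 patch members was above 0 in the Met1-1 and hdp1-1 ARE//AGe sMf libraries, with a lowest value of 2% in both. In Met1-1 sMf the median was 15% and the highest value 85%, and in hdp1-1 sMf 13% and 42%. Members at 10% or more numbered 74 in Met1-1, 73 in hdp1-1, 23 in suvh1-2, 5 in ddm1-1 and 0 in hdp2-1 sMf flowers, and 0 in the 4 rMf libraries. The Met1-1 and hdp1-1 lists shared 65 cytosines, which is 87.8% of the Met1-1 list and 89.0% of the hdp1-1 list. All 23 cytosines of the suvh1-2 list and all 5 of the ddm1-1 list were in the hdp1-1 list, while the suvh1-2 and ddm1-1 lists shared 0. With 74 and 73 of the 114 patch members, the Met1-1 and hdp1-1 lists each cover most of the patch. Large overlaps with them can thus follow from size alone, and lists of 23 and 5 can share few or 0 by size alone. Overlap beyond list size was not tested.

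The start of the patch was abrupt. The CHH cytosine at 10379703, on the minus strand and 899 bp from the AGp domain, is the first cytosine of an unbroken run above 0 in the Met1-1 and hdp1-1 sMf libraries. It stood at 25% in Met1-1 ARE//AGe sMf flowers and 4% in hdp1-1 ARE//AGe sMf flowers. The run spanned 148 members, to 10380353, in Met1-1 and 135 members, to 10380313, in hdp1-1. In suvh1-2 sMf the longest run began later, at 10379860, and took in 88 members, and in ddm1-1 sMf it took in 75 members from 10379727 to 10380036. Libraries near 1% in the patch had long runs too. The longest took in 58 members in ddm1-1 rMf, 49 in hdp1-1 rMf, 17 in Met1-1 rMf, 14 in hdp2-1 rMf and 29 in hdp2-1 sMf. By comparison, the longest run in the alleles without a construct was between 2 members (ddm1-1 and hdp2-1) and 6 members (suvh1-2). The level dropped again towards AGp. Over the 87 members in the last 400 bp it was 2.52% in Met1-1, 2.17% in hdp1-1, 1.75% in ddm1-1, 1.03% in suvh1-2 and 0.897% in hdp2-1 sMf flowers, and 0.793% to 1.67% in the rMf flowers of 4 alleles.

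**Figure D2:**
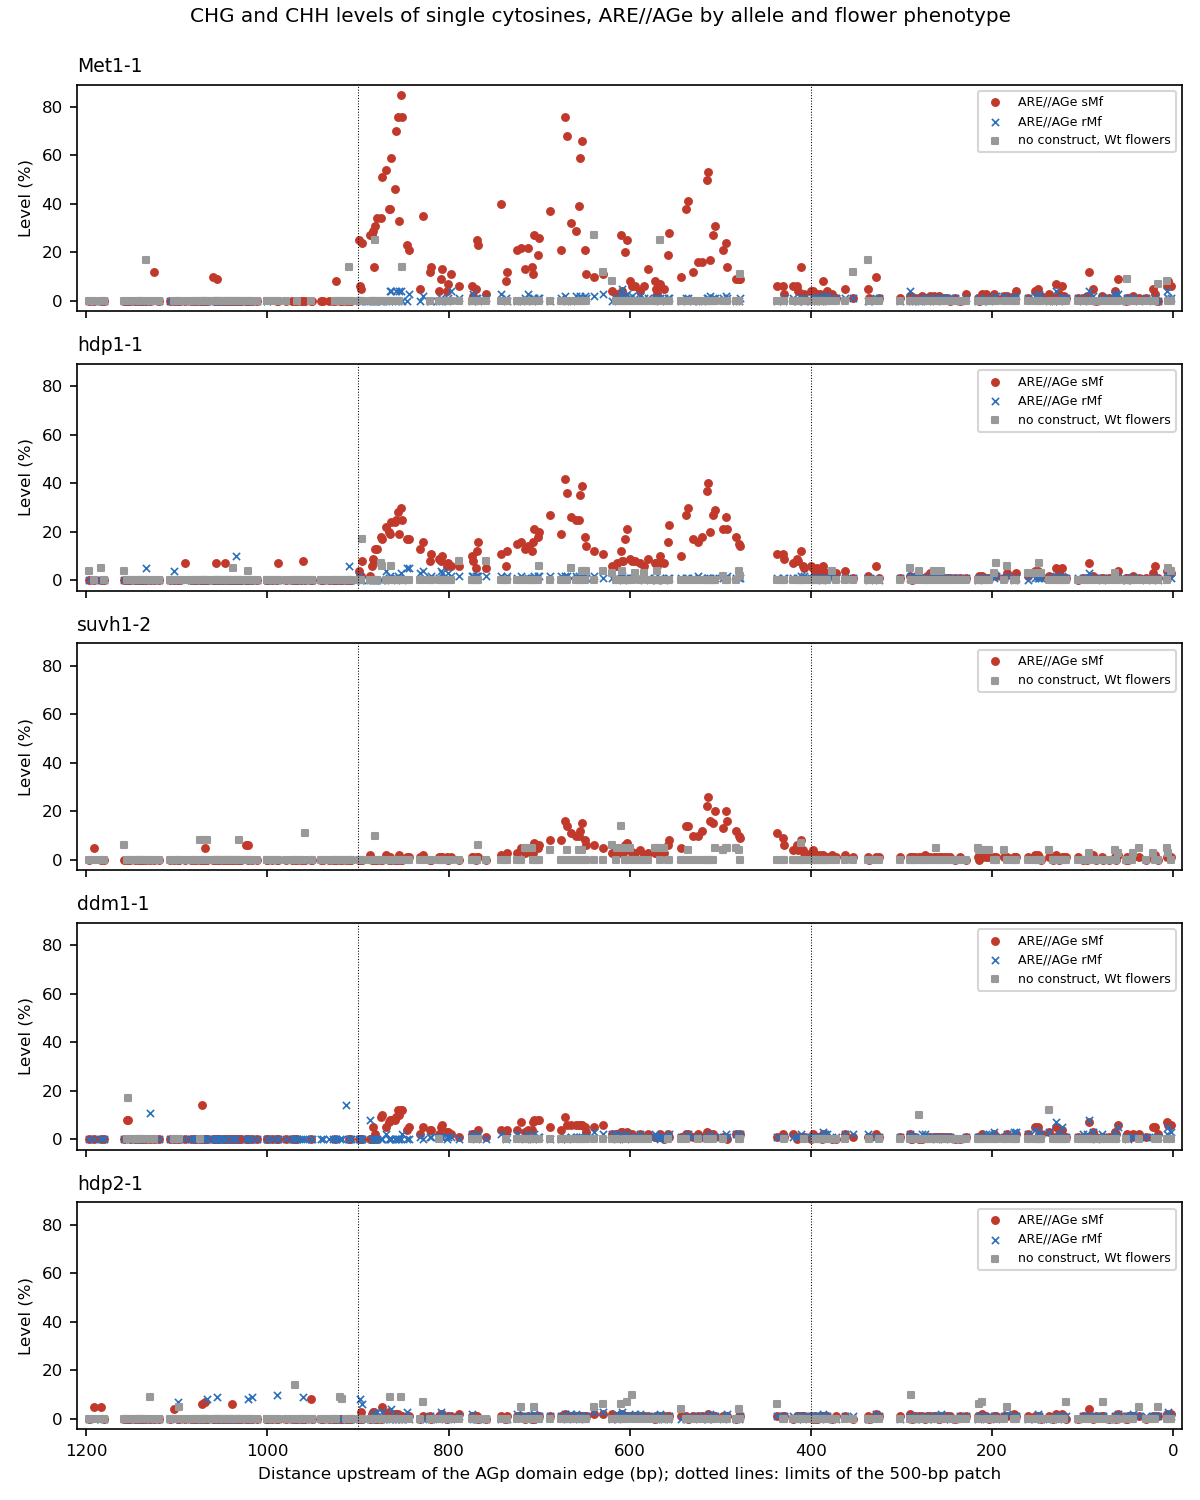
Level in percent of each CHG and CHH cytosine over the last 1200 bp of the stretch (x axis, distance upstream of the AGp domain edge in bp), by allele, for ARE//AGe sMf flowers (circles), ARE//AGe rMf flowers (crosses; not shown for suvh1-2) and Wt flowers without a construct (squares), 1 library each. Met1-1 and hdp1-1 sMf share crests near 853, 671 and 515 bp with levels up to 85% and 42%, while suvh1-2 has its highest values, up to 26%, in the part of the patch nearer to AGp, at 513 and 515 bp.

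The crests inside the patch differed in order between alleles. Met1-1 ARE//AGe sMf flowers had their highest window at the far end, with 31.2% at 801 to 900 bp, followed by 27% at 601 to 700 bp and 17.4% at 501 to 600 bp. In hdp1-1 the highest window was the middle one, with 19.7% at 601 to 700 bp, followed by 16.1% at 501 to 600 bp and 13.9% at 801 to 900 bp. In suvh1-2 the order ran towards AGp, with 9.0% at 401 to 500 bp, 8.68% at 501 to 600 bp and 7.55% at 601 to 700 bp. The ddm1-1 order followed the far end, with 4.85% at 801 to 900 bp and 4.50% at 601 to 700 bp. Across the 114 cytosines Pearson's r was 0.804 between Met1-1 and hdp1-1, 0.685 between Met1-1 and ddm1-1, 0.662 between hdp1-1 and suvh1-2 and 0.213 between Met1-1 and suvh1-2. These coefficients describe cytosines of single libraries that share the locus and its sequence contexts.

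Among the patch members of the ARE//AGe sMf libraries, CHG cytosines had higher mean levels than CHH cytosines. The 22 CHG members of the patch averaged 45.3% in Met1-1, 26.9% in hdp1-1, 9.36% in suvh1-2, 4.73% in ddm1-1 and 1.09% in hdp2-1 ARE//AGe sMf flowers. The 92 CHH members averaged 16.2%, 12.2%, 4.05%, 3.04% and 1.07% in the same order of alleles. The ratio of CHG to CHH was thus larger in Met1-1 than in hdp1-1, in 1 library each. In ARE//AGe rMf flowers CHG lay between 0.50% and 1.36% and CHH between 0.957% and 1.34%. The 10 CpG cytosines of the same 500 bp, which the rule did not use, averaged 27.9% in Met1-1, 26.3% in hdp1-1, 8.10% in suvh1-2, 3.70% in ddm1-1 and 0.800% in hdp2-1 sMf flowers, against 0.40% to 1.3% in rMf flowers. CpG in the patch therefore stood at 27.9% in the library of the Met1-1 allele, in whose libraries the 6 CpG cytosines of the 100 bp before the stretch were at 0%. The hdp1-1 sMf library had 61.7% at those 6.

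**Figure D3:**
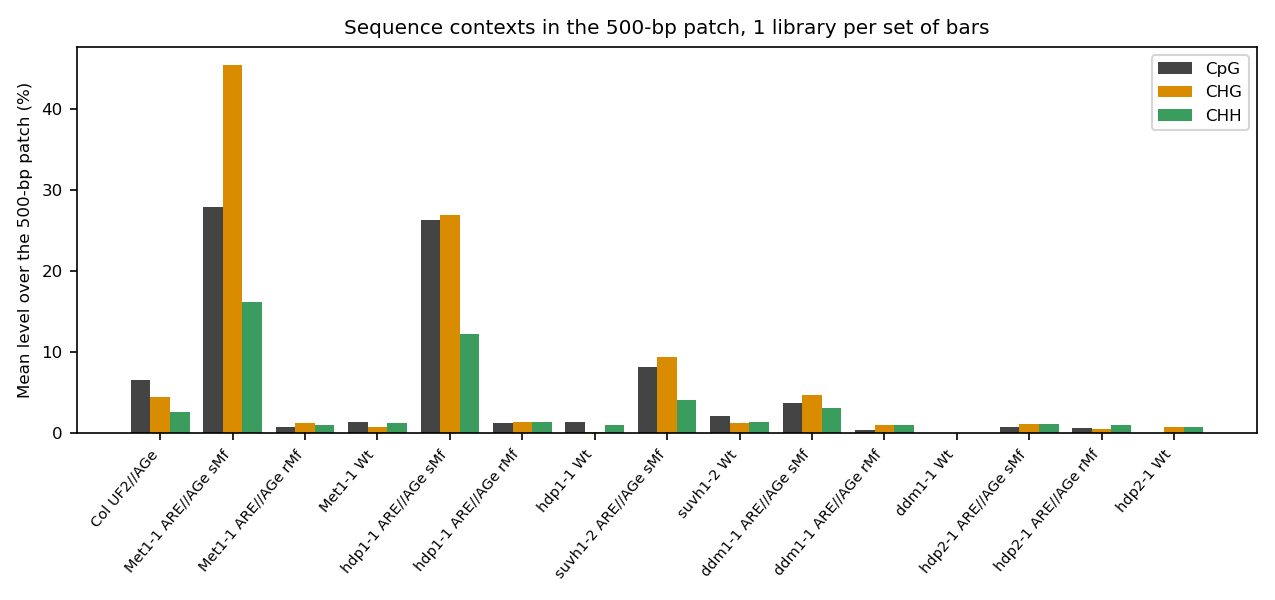
Mean level in percent over the 500-bp patch of 10 CpG, 22 CHG and 92 CHH cytosines (bars), for Col UF2//AGe and, by allele, ARE//AGe sMf, ARE//AGe rMf and Wt flowers without a construct, 1 library per set of bars and no error bars. CHG is highest in Met1-1 ARE//AGe sMf at 45.3%, while every rMf library lies at or below 1.36% in all 3 contexts.

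CHG sites are palindromic, so both strands can be read at the same site. At the site 10379749 and 10379751, 853 and 851 bp from AGp, Met1-1 ARE//AGe sMf flowers had 85% on the plus and 76% on the minus strand. The same site had 30% and 25% in hdp1-1, 12% and 12% in ddm1-1, 1% and 1% in hdp2-1, and 0% on both strands in suvh1-2. At 10379931 and 10379933 the plus and minus strands had 76% and 68% in Met1-1, 42% and 36% in hdp1-1, 16% and 14% in suvh1-2, 9% and 6% in ddm1-1, and 2% and 1% in hdp2-1. At 10380087 and 10380089 they had 50% and 53% in Met1-1, 37% and 40% in hdp1-1, and 22% and 26% in suvh1-2. Met1-1 therefore led at all 3 sites, and suvh1-2 was methylated at the 2 sites nearer to AGp and at 0% at the far one. Over the 10 paired CHG sites of the patch the strands differed by a median of 5.5 percentage points in Met1-1, 4 in hdp1-1, 1.5 in suvh1-2, 1 in ddm1-1 and 0 in hdp2-1 sMf flowers. CHH levels were 18.6% on the plus and 13.7% on the minus strand in Met1-1 (46 members each), and 3.17% on the plus and 4.93% on the minus strand in suvh1-2.

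A second, weaker feature was common to all 9 ARE//AGe libraries of the alleles, whatever the flower phenotype. From the start of the patch to the AGp edge, most members were listed above 0. In the patch the share above 0 was 78.9% to 100% in the 5 sMf libraries and 57.9% to 84.2% in the 4 rMf libraries, against 0% to 24.6% in the 5 alleles without a construct. In the 547 members before the patch the same shares were 3.97% to 11.5% in sMf and 5.01% to 11.3% in rMf libraries, against 3.66% to 11.9% without a construct. In rMf libraries these values were small, with a median of 1% among the members above 0 in the patch. Their mean patch levels, 0.947% to 1.34%, overlapped the 0% to 1.32% of the alleles without a construct. Before the patch, the lowest value above 0 was 5% in Met1-1 sMf and 7% in Met1-1 rMf flowers, 7% in both ddm1-1 libraries, and 2% or 3% in the others, against 1% or 2% in the patch of all 9. Without a construct, the lowest value above 0 in the patch was 8% in Met1-1, 4% in suvh1-2 and hdp2-1, and 2% in hdp1-1. How many reads covered a cytosine limits how small a value can be listed, and the part of depth in these shares was not tested. Col UF2//AGe had 65.8% of patch members above 0, with a lowest value of 1%, so a high share was not limited to these 9 libraries. In Col with ARE//AGe and Wt flowers 2.63% (set A) and 6.14% (set C) of patch members were above 0.

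**Figure D4:**
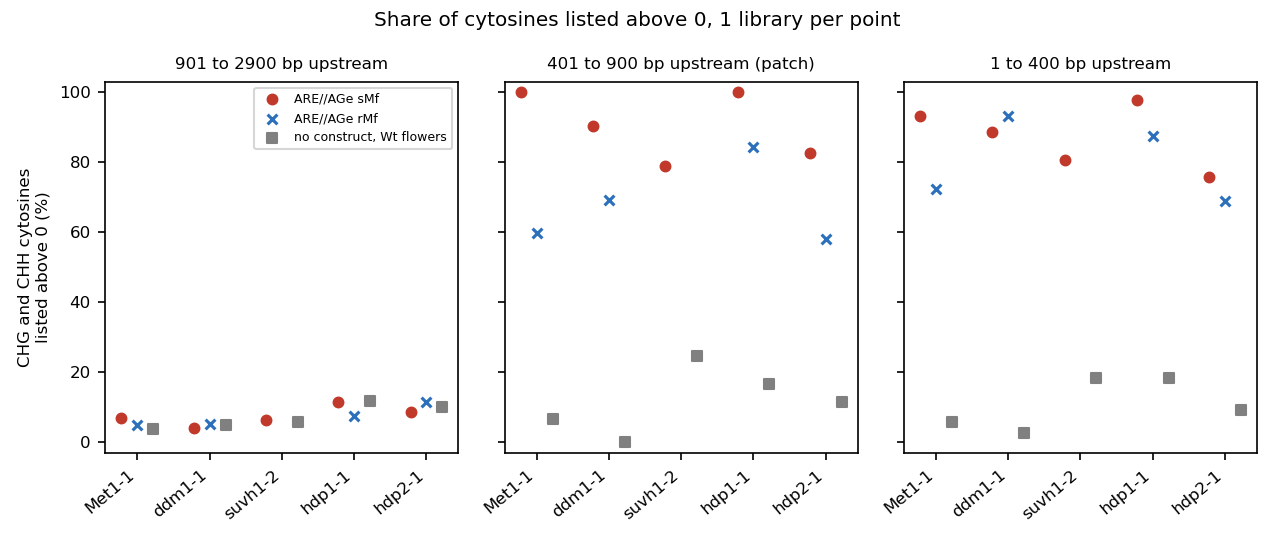
Share in percent of CHG and CHH cytosines listed above 0 before, in and after the 500-bp patch (panels), by allele, for ARE//AGe sMf flowers (circles), ARE//AGe rMf flowers (crosses) and Wt flowers without a construct (squares), 1 library per point. In the patch the ARE//AGe libraries lie between 57.9% and 100%, above the 0% to 24.6% of the libraries without a construct, while farther upstream all lie at or below 11.9%.

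The level of the AGp domain itself was set beside that of the patch. The mean non-CpG level of the AGp domain was 21.4% in Met1-1 ARE//AGe sMf flowers, against 28.8% in Met1-1 ARE//AGe rMf flowers, and 21.5% in hdp1-1 ARE//AGe sMf flowers, against 24.5% in hdp1-1 ARE//AGe rMf flowers. Both rMf libraries were higher there and near 1% in the patch. The other alleles went the opposite way, with 26.1% in ddm1-1 ARE//AGe sMf flowers, against 21.4% in ddm1-1 ARE//AGe rMf flowers, and 24.1% in hdp2-1 ARE//AGe sMf flowers, against 21.1% in hdp2-1 ARE//AGe rMf flowers. In suvh1-2 ARE//AGe sMf flowers the domain stood at 19.3%. In the 4 Col libraries of set A with AGp the domain lay between 21.0% and 33.9%, with a patch level of 0.0702% to 0.596%. The Col ARE//AGe Wt libraries had 0.724% (set A) and 0.996% (set C) in the AGp domain. It stood at 1.16% to 11.2% in the 5 alleles without a construct and at 0.591% to 5.16% in the 4 Ctr//AGe libraries.

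Over the whole stretch the flower phenotypes were compared within alleles. ARE//AGe sMf flowers exceeded ARE//AGe rMf flowers by 3.36 percentage points in Met1-1 (4.12% against 0.759%), 2.38 in hdp1-1 (3.01% against 0.634%) and 0.353 in ddm1-1 (1.17% against 0.815%), whereas hdp2-1 differed by -0.0775 (0.583% against 0.660%). The mean difference of 1.5 points gave p = 0.25 by a two-sided exact permutation test within 4 alleles, which cannot go below 0.13 (adjusted p = 0.583 over the 7 level tests). It was 0.885 points without either Met1-1 library, which takes that allele out. With CHG members alone all 4 alleles were higher in sMf and the difference was 5.02 points, at the smallest p the exact permutation test allows. Limited to members farther than 1120 bp from AGp, before the patch, the difference was -0.0502 points (p = 0.625, exact permutation test).

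ARE//AGe was also set against no construct within the 5 alleles. The 9 ARE//AGe libraries averaged 1.43% ± 1.26 and the 5 without a construct 0.628% ± 0.0453 (SD). The mean difference within alleles was 0.774 points, higher in 4 of 5 alleles and lower in hdp2-1, with p = 0.130 by an exact permutation test that can reach 0.00617 (adjusted p = 0.583). Without the Met1-1 ARE//AGe sMf library the difference was 0.439 points. Counted instead as the share of members above 0, an alternative added after seeing the data, the difference was 19.5 points, with the smallest possible exact permutation p of 0.00617. Farther than 1120 bp from AGp that share differed by -0.0569 points (exact permutation p = 0.981). The smallest value a library can list limits this share, and the part of read depth in its difference was not tested. Against Ctr//AGe in Met1-1 and ddm1-1, the 4 ARE//AGe libraries averaged 1.71% ± 1.61 and the 2 Ctr//AGe libraries 0.643% ± 0.0249 (SD). The difference of 1.07 points had an exact permutation p of 0.444, which cannot go below 0.11. It was 0.232 points without the Met1-1 ARE//AGe sMf library, 1.91 and 1.81 points without Met1-1 ARE//AGe rMf and ddm1-1 Ctr//AGe rMf, and 0.331 points without Met1-1 Ctr//AGe rMf.

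**Figure D5:**
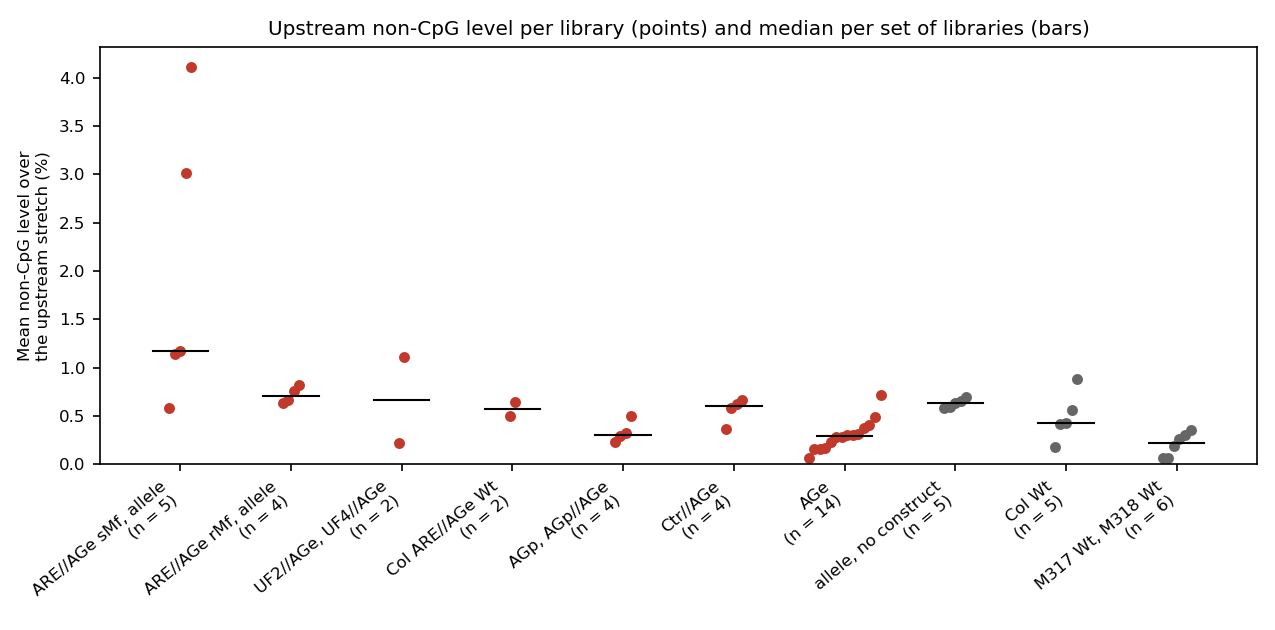
Mean CHG and CHH level in percent over the whole upstream stretch for each library (points), with the median of each set of libraries (bars), constructs left and plants without a construct right. The highest points are Met1-1 ARE//AGe sMf at 4.12% and hdp1-1 ARE//AGe sMf at 3.01%, above all libraries without a construct, which reach 0.879%.

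Col UF2//AGe was the other library with methylation in the stretch, at 1.11% overall and 2.96% in the patch. Its CpG, CHG and CHH levels in the patch were 6.50%, 4.41% and 2.61%. Among the ARE//AGe sMf libraries, its profile within the patch was nearest to that of suvh1-2, by Pearson's r. Next to the AGp edge it differed from suvh1-2, which had 0.833% over the last 100 bp. Members of UF2//AGe were listed above 0 in number from 1400 bp upstream on, but at 0.789% to 0.941% per window between 701 and 1400 bp. The window means then stood at 4.23%, 4.48% and 5.73% between 700 and 401 bp, at 0% from 301 to 400 bp, and at 6.46% in the last 100 bp before AGp. Within the patch its Pearson's r over 114 cytosines was 0.549 with suvh1-2 sMf, 0.295 with hdp1-1 sMf and 0.0853 with Met1-1 sMf. It was -0.0842 with ddm1-1 sMf and 0.0063 with hdp2-1 sMf. Col UF4//AGe had 0% in the patch and 0.215% over the whole stretch. Before the patch only 6 of its 547 members were above 0, the lowest at 17%. As elsewhere in set A, its 0% in the patch may also stand for cytosines without reads. Both libraries had a methylated AGp domain, with 13.2% in UF2//AGe and 14.0% in UF4//AGe.

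In Col of set A with AGp, methylation outside the domain was sparse. The 2 AGp Sterile libraries had 0.496% and 0.290% over the stretch, against 0.180% and 0.420% in the 2 Col Wt libraries, so the groups overlapped (difference 0.0929 points, exact permutation p = 0.667, smallest possible 0.33). The table's columns fall in blocks that differ in how their rows are displaced, and the difference was 0.316 points within one block and -0.130 within another, with 1 library a group in each. It was -0.0267 points without Col Wt replicate A, -0.01 without AGp Sterile replicate 1, and 0.196 and 0.213 without AGp Sterile replicate 2 and Col Wt replicate C. The 2 AGp Sterile libraries and AGp//AGe rMf together averaged 0.368% ± 0.112, against 0.235% ± 0.152 in the 4 Col libraries with AGe alone or no construct (SD). That difference of 0.133 points had an exact permutation p of 0.229 (smallest possible 0.0286, adjusted p = 0.583). It ran from 0.0692 points without AGp Sterile replicate 1 to 0.195 without Col Wt replicate C. The AGp//AGe sMf library, whose levels set the limits of the stretch, was left out of these means. It had 0.227% over the stretch, below both means. Next to the AGp edge, AGp Sterile replicate 1 had 4.21% non-CpG and 45.8% CpG over the last 100 bp, against 0% non-CpG and 3.67% CpG in replicate 2, so that 1 of the pair carried the signal. The CHG cytosine at 10380582, 20 bp from AGp, stood at 78% in replicate 1 and 0% in replicate 2. Of libraries with a construct, this cytosine and its partner at 10380580 on the plus strand had a mean of 4.43% and 4.94%, placing both among the 10 members highest on average, and no member had a median above 0 over the 35 libraries with a construct. Libraries not labelled AGp also had levels over the last 100 bp. M317 AGe rMf replicate A had 4.17% non-CpG, all from 100% at 10380580, and 33.3% CpG. M318 AGe sMf replicate A had 1.42% and 27.8%, and UF2//AGe 6.46% and 31.2%. The other AGe libraries of set A had 0% non-CpG there, which in M317 and M318 may stand for no reads.

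For AGe alone no difference beyond the spread between libraries was detected. Farther than 1120 bp from AGp, AGe libraries of Col, M317 and M318 averaged 0.413% ± 0.276 (n = 13) and Wt libraries 0.322% ± 0.187 (SD, n = 8). The mean difference within backgrounds was 0.0358 points (exact permutation p = 0.746), higher in M317 and M318 and lower in Col, and 0.0437 and 0.0289 points within the 2 blocks of columns. It was below 0 without Col Wt replicate A (-0.0261), Col AGe rMf replicate B, M318 AGe rMf replicate B or M318 Wt replicate A, and 0.0978 without Col Wt replicate C. Between flower phenotypes, AGe sMf libraries of M317 and M318 averaged 0.412% ± 0.157 (n = 5) and AGe rMf libraries 0.487% ± 0.363 (SD, n = 6). The mean difference was -0.0752 points (exact permutation p = 0.655), 0.115 and -0.156 points within the 2 blocks, 0.0358 without M318 AGe rMf replicate B and -0.177 without M318 AGe rMf replicate A.

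Single cytosines were tested with limma in the 9 replicated groups of set A, over all 2301 cytosines above 0 in at least 2 of these libraries, with Benjamini-Hochberg adjustment. Only 110 of the 748 members passed that filter. For AGp Sterile against Col Wt, 1 of 110 members was called at adjusted p under 0.05, against 21.9% of the whole table. The called member was the CHH cytosine at 10378917 on the plus strand, 1685 bp from AGp, with 17% and 25% in AGp Sterile and 0% and 0% in Col Wt (adjusted p = 2.11e-12 by limma). It passed the filter through the 2 AGp Sterile libraries alone, so that a difference was built into its entry, and with a filter of 4 libraries it was not tested. A single library of Col Wt in set B had 11% at this cytosine. For Col AGe rMf against Col Wt 0 members were called by limma and 0 had an unadjusted p under 0.05, against 29.1% called in the table. For M317 AGe sMf against M317 Wt 0 members were called by limma and 6 had an unadjusted p under 0.05, against 28.5% called in the table. For M317 AGe rMf 1 member was called, lower than in M317 Wt, against 24.8% of the table. For M318 AGe sMf 1 member was called, against 14.3%, and for M318 AGe rMf 5 members were called, all higher than in M318 Wt, against 26.9%. The members' shares thus lay below the table's in all 6 comparisons. The libraries of the compared groups overlapped at each of the 7 members called in M317 or M318. At each of these 7 the lower group was at 0% in all its libraries. The higher group alone may thus have carried them past the filter, so that a difference may be built into these calls too.

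These counts rested on few libraries. For AGp Sterile the count was 9 without Col Wt replicate A and 4 without AGp Sterile replicate 2. For Col AGe rMf it was 14 without Col Wt replicate A, 6 without AGe rMf replicate A and 2 without AGe rMf replicate B. For M317 AGe sMf it was 10 and 7 without AGe sMf replicate A and B, and 2 without M317 Wt replicate A. For M317 AGe rMf it was 2 without M317 Wt replicate A and 0 without AGe rMf replicate B or C or M317 Wt replicate B or C. For M318 AGe sMf it was 2 without AGe sMf replicate A and 0 without any other library of the pair of groups. For M318 AGe rMf it was 0 without AGe rMf replicate B or C.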

How the data were processed

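Bisulfite levels of 51 flower libraries were read from a single deposited table. The authors' deposited values are other than counts: whole percent methylation levels per cytosine whose sign marks the strand. Coverage is not in the table. Per the submitters' processing notes, the tools were FastQC 0.11.9, HISAT2 and Bismark on build TAIR10, with no order stated. Any coverage minimum is not given in the sources used here. For the levels, the sign was dropped from each level, and rc and empty entries were treated as missing.

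Columns fell into 5 blocks, of which 4 had rows out of step with the coordinates. A hidden Markov model of the signs (displacements up to 40 rows, error rate 0.003, change rate 0.004, least posterior 0.9) brought them into register. The sign matched in 54.4% to 65.6% of rows before and 99.95% to 100% after, with 95.2% to 96.2% of rows kept. In simulated displacements 98.9% to 100% of kept rows were right.

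Levels are means over cytosines, compared over libraries by two-sided exact permutation tests with Benjamini-Hochberg adjustment over 7 tests. For each cytosine limma 3.58.1 (R 4.3.3) was fitted to log2((p + 0.01)/(1 - p + 0.01)), with p the level as a fraction. On simulated data for M317 AGe rMf with 2301 cytosines, the share called was 52%, 88%, 94% and 100% of 50 cytosines each given a log2 shift of 2, 4, 6 and 8, and 8 unshifted cytosines were called as well. Named sites were up to 5 called members in each direction whose libraries did not overlap, the 5 highest windows per group and the 10 members highest in construct libraries. Other sites were named after their values were seen. Members, limits and comparisons were chosen with earlier results of these data known. Lines within a pooled library are not separate replicates, and nothing in the labels says that replicates of a group came from separate plants, so p-values measure the spread between these libraries. Alternatives were other contexts, member ranges, filters, offsets, unaligned rows, column blocks and leaving out libraries. No genome sequence was used here, so no sequence is printed.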

Additional observations from a re-analysis of the deposited data

Results flagged for a closer look

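The sMf to rMf difference of the ARE//AGe libraries did not go the same way in every allele over the whole stretch. It was 3.36 percentage points in Met1-1, 2.38 in hdp1-1 and 0.353 in ddm1-1, against -0.0775 in hdp2-1. Each value rests on 1 sMf and 1 rMf library, so the difference between alleles was not tested.

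CpG cytosines lie outside the rule, and in the 500-bp patch 6 libraries had a CpG level above the highest Col Wt library (2.70%). These were Met1-1 ARE//AGe sMf with 27.9%, hdp1-1 ARE//AGe sMf with 26.3%, suvh1-2 ARE//AGe sMf with 8.10%, Col UF2//AGe with 6.50%, ddm1-1 ARE//AGe sMf with 3.70% and Col AGp//AGe rMf with 3.0%. Each value is a mean over 10 cytosines of 1 library.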

How the results depend on the processing

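Of 201 alternative values, 149 kept their direction and their side of the threshold, or stayed within 1.5 times the count. These were 109 of 129 level alternatives and 40 of 72 call alternatives. For AGp Sterile minus Col Wt, ARE//AGe minus Ctr//AGe and ARE//AGe sMf minus rMf, no exact permutation p could fall under 0.05. Their side of the threshold was thus fixed in advance. AGp Sterile minus Col Wt reversed to -0.0072 points over members farther than 1120 bp from AGp, -0.0668 as the share above 0 (-0.517 over the same far members) and -0.130 within column block 2, and ran from -0.0267 to 0.213 leaving out each library. AGe minus Wt reversed to -0.0531 with CHG alone and -0.0849 as the share at 10% or more, and ran from -0.0261 to 0.0978. AGe sMf minus rMf reversed to 0.0344 as the share at 10% or more and 0.115 within column block 1, and ran from -0.177 to 0.0358. Over those far members, ARE//AGe minus no construct was -0.0797 (share above 0, -0.0569), ARE//AGe minus Ctr//AGe -0.048 and ARE//AGe sMf minus rMf -0.0502. ARE//AGe minus no construct passed 0.05 only as the share above 0 (19.5 points), and leaving out libraries it ran from 0.439 to 1.11. ARE//AGe minus Ctr//AGe ran from 0.232 (without Met1-1 ARE//AGe sMf) to 1.91 (without Met1-1 ARE//AGe rMf), and ARE//AGe sMf minus rMf from 0.885 (without either Met1-1 library) to 2.03. The cause of these changes was not tested. Member calls for AGp Sterile were 0 with a filter of 4 libraries and 2 with rows as deposited, and ran from 1 to 9 leaving out libraries. For Col AGe rMf they ran from 0 to 14. For M317 AGe sMf they were 1 with a filter of 4 libraries and 1 with an offset of 0.05, and ran from 0 to 10. For M317 AGe rMf they were 0 with no filter and 0 with the compared groups alone, and ran from 0 to 2. For M318 AGe sMf they were 0 with no filter, a filter of 4 libraries or the compared groups alone, and ran from 0 to 2. For M318 AGe rMf they were 0 with a filter of 4 libraries or the compared groups alone, and ran from 0 to 6. Libraries with the same replicate letter did not deviate together (r from -0.151 to 0.0473). With a replicate block, AGe minus Wt was 0.106 points (exact permutation p = 0.162), AGe sMf minus rMf -0.0847, and the calls were 0, 0, 1, 1 and 5, as without it. Leaving out the last 500 bp was not run for comparisons already limited to far members. Unknown depth limits all levels near 1%.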
